A study of Mus musculus with 90 samples.

Results

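The zona pellucida genes Zp1, Zp2 and Zp3 and the genes of 5 other proteins that the oocyte releases, Gdf9, Bmp15, Bmp6, Fgf8 and Oosp1, were followed from the unfertilised egg to the 8-cell embryo. These 8 genes were chosen by symbol from the 24422 genes of the count table, and each of the 8 was found there. The study asked what maternal Plag1, a zinc finger transcription factor, does in early mouse development. Single MII oocytes were picked 21 to 23 h after hCG, single 2-cell (2c) embryos at 45 to 47 h and single 8-cell (8c) embryos at 71 to 73 h after fertilisation, on 3 collection occasions in all. Each was made into its own library by the STRT method, which reads the 5′ end of polyadenylated transcripts, counts molecules by a tag and carries a fixed amount of synthetic spike-in RNA.

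All mice were of the CD-1 strain, and all females were superovulated and between 1 and 3 months of age. WT oocytes came from wildtype females, and KO oocytes came from females without Plag1, in which lacZ takes the place of the coding frame. WT embryos came from wildtype females. The matPlag1KO embryos, written KO here with their stage, came from KO females mated with wildtype males, so they were heterozygous and lacked Plag1 from the mother alone. Embryos were cultured in KSOM medium, and oocytes were not. There were 16 oocytes, 14 2c embryos and 15 8c embryos of each genotype, and several of one group shared a donor female that the labels do not name. The p-values therefore measure the spread between single oocytes or embryos, not between females.

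The zona pellucida is the glycoprotein coat of the egg. In the mouse it is built of filaments of ZP2 and ZP3 linked by ZP1, it is laid down while the oocyte grows, and it binds sperm and later shields the cleaving embryo. GDF9 and BMP15 are paired members of the TGF-beta superfamily that the oocyte sends to its cumulus and granulosa cells, where they act through BMPR2 and SMAD proteins. BMP6 is a further ligand of that superfamily, FGF8 is a fibroblast growth factor that works with BMP15 on cumulus metabolism, and OOSP1 is a small secreted protein of the oocyte related to placenta-specific PLAC1. Transcripts of such genes are stored in the full-grown oocyte and are cleared in the wave of maternal RNA decay around fertilisation and zygotic genome activation.

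The promoters of the zona genes are shown because FIGLA, an oocyte basic helix-loop-helix factor, is known to act on them together with TCF3 at a short motif, the E-box. The promoter of Bmp15 is shown with them because Bmp15 differed most between the genotypes at the 2c stage. Each line gives the 250 bases before the annotated start, 5′ to 3′ on the strand of the gene, on mm9. Capitals mark an E-box (CANNTG, the same on both strands) or TATAA read on the strand of the gene. Zp1 lies at chr19:10995092-10995341 on the minus strand, Zp2 at chr7:127288805-127289054 on the minus strand, Zp3 at chr5:136455725-136455974 on the plus strand and Bmp15 at chrX:5897842-5898091 on the minus strand.
Zp1: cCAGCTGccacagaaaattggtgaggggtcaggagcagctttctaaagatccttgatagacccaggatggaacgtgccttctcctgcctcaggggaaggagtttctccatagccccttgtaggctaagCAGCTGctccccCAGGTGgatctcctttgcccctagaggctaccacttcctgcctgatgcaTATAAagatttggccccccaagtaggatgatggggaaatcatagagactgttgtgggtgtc
Zp2: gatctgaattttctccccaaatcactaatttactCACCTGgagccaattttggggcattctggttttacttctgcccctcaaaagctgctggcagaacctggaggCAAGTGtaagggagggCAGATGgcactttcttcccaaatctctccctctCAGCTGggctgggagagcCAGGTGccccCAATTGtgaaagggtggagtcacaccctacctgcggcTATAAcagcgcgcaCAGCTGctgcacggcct
Zp3: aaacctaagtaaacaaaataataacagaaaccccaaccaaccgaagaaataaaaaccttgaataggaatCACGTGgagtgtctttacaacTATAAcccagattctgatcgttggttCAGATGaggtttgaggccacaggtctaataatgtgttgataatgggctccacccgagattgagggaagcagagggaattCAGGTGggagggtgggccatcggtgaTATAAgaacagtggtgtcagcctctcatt
Bmp15: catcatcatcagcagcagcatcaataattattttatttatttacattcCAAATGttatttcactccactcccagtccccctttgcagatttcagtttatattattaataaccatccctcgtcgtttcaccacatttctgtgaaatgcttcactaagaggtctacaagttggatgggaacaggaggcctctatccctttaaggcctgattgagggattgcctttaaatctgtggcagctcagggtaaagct

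An E-box was present before 7 of the 8 genes, all but Fgf8, and before 63.1% of the 24323 genes of the table whose promoters could be read. The zona promoters held 3, 7 and 3 of them in Zp1, Zp2 and Zp3, against 1 in Gdf9 and in Bmp15, 2 in Bmp6 and 5 in Oosp1. The form CACGTG was found 181 bases before the start of Zp3 and 127 bases before that of Bmp6, and in 6.6% of all promoters. TATAA lay 61 bases before the start of Zp1, 31 before that of Zp2, 160 and 29 before that of Zp3 and 227 and 192 before that of Gdf9, and was present in 15.8% of all promoters. The PLAG1 consensus motif was searched on both strands from 2000 bases before to 500 after the start. Its 2 parts were held 7 bases apart. In this form it was present in 4 of the 8, namely Zp2, Zp3, Gdf9 and Fgf8, and in 37.2% of all genes. Matches with another gap were not counted, so absence from the other genes holds for this spacing only. The study's own longer PLAG1 motif, found in promoters of human embryo genes, was not searched. The motif matches given above are letters in a window, not measured binding.

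**Figure D1:**
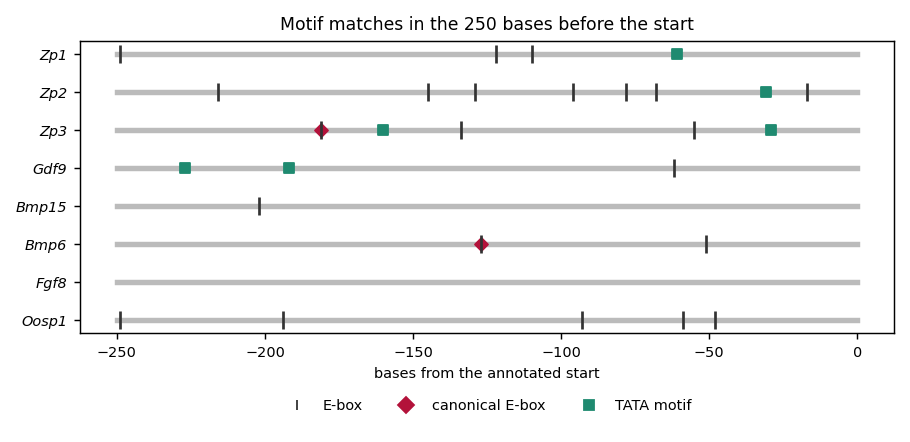
Motif matches in the 250 bases before the annotated start of the 8 genes, with the distance from the start in bases on the horizontal axis and 1 line per gene. Black ticks are E-boxes, red diamonds those spelled CACGTG and green squares TATA motifs on the strand of the gene; Zp2 holds 7 E-boxes and Fgf8 none.

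On mm9, Zp1 spans 6305 bases in 12 exons on chromosome 19, Zp2 12930 bases in 18 exons on chromosome 7 and Zp3 8520 bases in 8 exons on chromosome 5. Gdf9 spans 4617 bases in 2 exons on chromosome 11, and Bmp15 6618 bases in 2 exons on the X chromosome. Bmp6 spans 154599 bases in 8 exons on chromosome 13, while Fgf8 (6087 bases, 5 exons) and Oosp1 (23592 bases, 5 exons) lie with Zp1 on chromosome 19. Bmp6 alone overlapped other annotated genes, 4930579J19Rik and Txndc5. Whether counting used the strand is not given in the sources used here, so reads of Bmp6 may include reads of those genes.

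Of the 90 libraries, 78 were kept, with between 92475 and 2502421 gene counts each. They comprised 16 WT and 14 KO oocytes, 11 WT and 11 KO 2c embryos, and 15 WT and 11 KO 8c embryos. They were spread over 2 sequencing pools, labelled libA and libB. The labels name no plate, but the pools are called plates A and B here, and a well is the position in the label. Plag1 itself had 326 counts in the 16 WT oocytes, with at least 1 in each, and 4 counts in 3 of the 14 KO oocytes. At the 2c stage it had 1 count in 11 WT embryos and 91 counts in 9 of 11 KO embryos. Cumulus and granulosa markers were few in the oocytes: 9 of 17 had any count in WT and 9 in KO, with summed levels of 13.5 to 375 CPM and 33.8 to 196 CPM. At 0 in both were Foxl2, Amh, Ptx3, Tnfaip6, Ptgs2, Areg and Ereg. Cyp19a1 had counts in 15 of 16 WT and 14 of 14 KO oocytes, with means of 16.8 and 14.5 normalised CPM, Fshr had counts in 10 and 10, and most of the sum was Nr5a2, with means of 120 and 96.7. Oocyte markers were all detected, with summed levels of 12813 to 36657 CPM in WT and 12726 to 37099 CPM in KO.

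Some oocytes stood apart from the rest, and this touches every comparison that uses MII oocytes. Mos, the kinase that holds the egg at metaphase II, was at or under 42.4 CPM in 9 of the 16 WT oocytes and at 156 to 769 CPM in the other 7. The 9 comprised all 8 WT oocytes of plate B and 1 of plate A. Among KO oocytes, 2 of 14 had little Mos, both in plate B, at 4.46 and 8.84 CPM, and the other 12 were at 83.5 to 1592 CPM. Gdf9 ranged from 209 to 637 normalised CPM in these 11 oocytes and from 2439 to 10225 in the other 19, so the ranges did not overlap. Normalised CPM are counts scaled to library size with edgeR's TMM factors, while Mos and summed marker levels are plain CPM. Zp1, at 80.1 to 398 against 290 to 1934, and Oosp1, at 1632 to 3674 against 2101 to 9245, were also mostly lower, while the range of Bmp15 was 665 to 2339 against 656 to 9897 and that of Bmp6 16.0 to 56.5 against 8.93 to 68.0. The 11 libraries held 222357 to 591662 gene counts and the other 19 held 323566 to 2502421. The labels call this first stage MII, while 1 sentence of the study's methods counts 16 zygotes there. What sets these oocytes apart was not tested. Comparisons of oocytes between genotypes and of oocytes with 2c embryos are given with and without them.

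**Figure D2:**
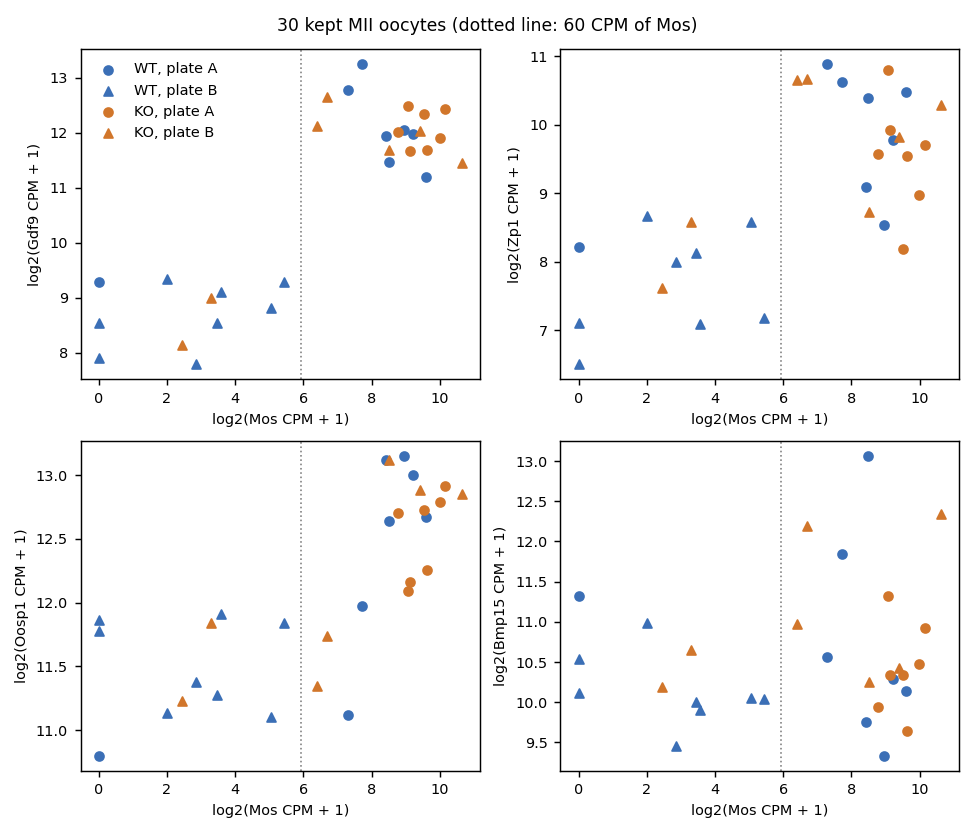
Levels of Gdf9, Zp1, Oosp1 and Bmp15 against Mos in the 30 kept MII oocytes, as log2(CPM + 1) on both axes, with circles for plate A, triangles for plate B, blue for WT and orange for KO. Left of the dotted line at 60 CPM of Mos lie 9 WT and 2 KO oocytes, in which Gdf9 is below its range in every other oocyte while the ranges of Bmp15 on the left and right overlap.

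All 8 genes were detected in MII oocytes, 7 of them in each of the 30 libraries. Fgf8 was the exception, with no count in 2 of the 16 WT oocytes. Zp1, which crosslinks the zona filaments, ranged from 80.1 to 1781 normalised CPM in WT oocytes, with a median of 367, and from 187 to 1934 in KO oocytes, with a median of 804. Zp2, whose product is cleaved after fertilisation to block further sperm, ranged from 69.5 to 299 (median 134) in WT and from 84.6 to 619 (median 151) in KO. Zp3, the structural partner of Zp2, ranged from 37.8 to 1313 (median 265) in WT and from 38.1 to 1940 (median 439) in KO. The genotypes overlapped for each zona gene, and only 1, 3 and 2 of the 14 KO oocytes lay above the highest WT oocyte for Zp1, Zp2 and Zp3.

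The growth factors overlapped between the genotypes too. Gdf9 ranged from 209 to 10225 normalised CPM in WT oocytes (median 604) and from 268 to 6444 in KO oocytes (median 3954). Bmp15 ranged from 656 to 9897 (median 1085) in WT and from 830 to 5561 (median 1394) in KO. Of the oocytes with little Mos, in which Gdf9 was lowest, 9 were among the 16 WT and 2 among the 14 KO. Bmp6 ranged from 15.7 to 68.0 (median 32.7) in WT and from 8.93 to 62.9 (median 29.0) in KO. Fgf8 ranged from 0 to 155 (median 29.9) in WT and from 7.37 to 128 (median 34.6) in KO. Oosp1 ranged from 1632 to 9245 (median 3270) in WT and from 2287 to 8720 (median 5858) in KO. The 8 genes together made up 0.995% ± 0.572 (SD, n = 16) of the gene counts of a WT oocyte and 1.31% ± 0.383 (SD, n = 14) of those of a KO oocyte.

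**Figure D3:**
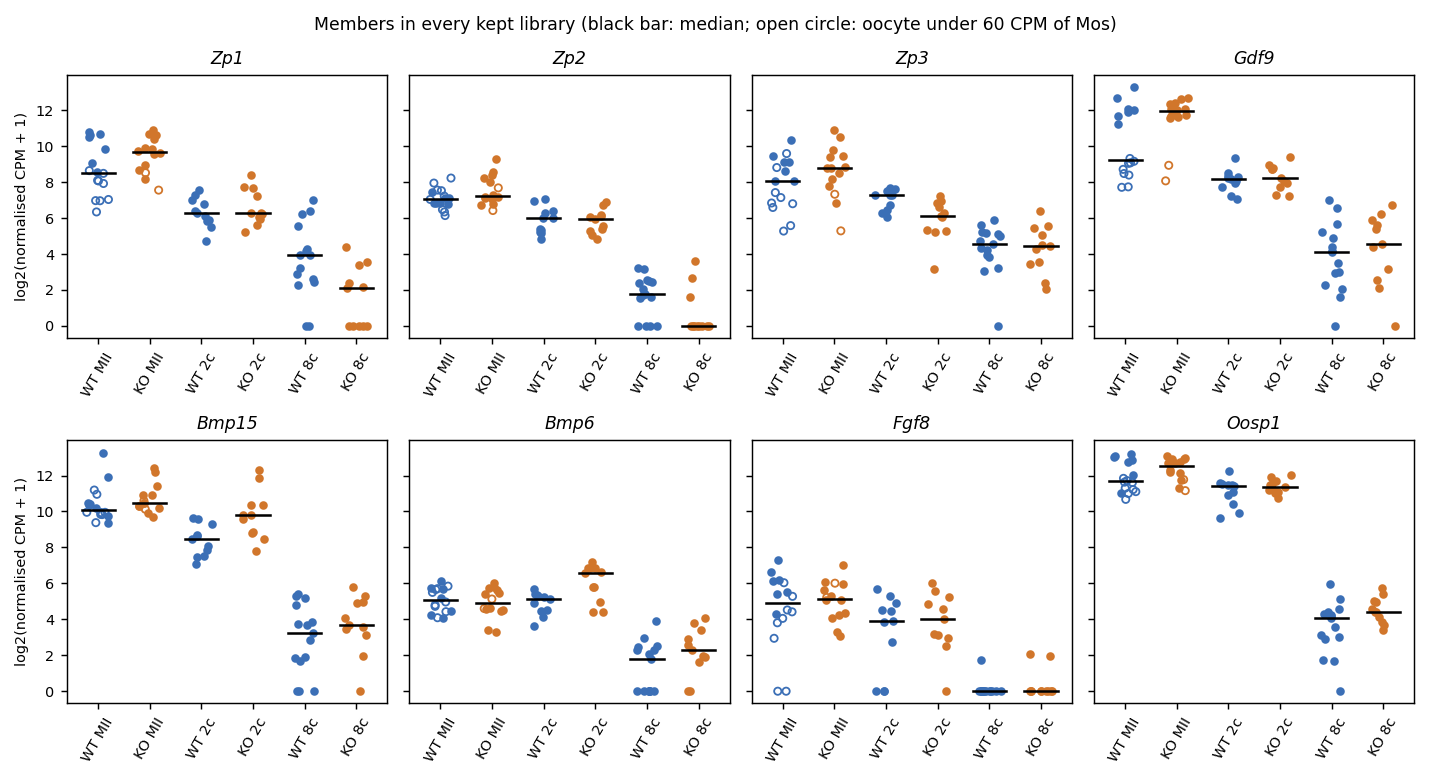
Level of each of the 8 genes in each of the 78 kept libraries, as log2(normalised CPM + 1) on the vertical axis, by group along the horizontal axis (blue WT, orange KO). Black bars are group medians and open circles are the 11 oocytes under 60 CPM of Mos; every gene is low or absent at 8c, and Bmp15 and Bmp6 lie higher in KO than in WT at 2c.

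To ask whether oocytes without Plag1 hold other amounts of these transcripts, KO was compared with WT at MII. None of the 8 genes was a DEG (edgeR quasi-likelihood test, Benjamini-Hochberg adjusted p under 0.05), where 0.781% of the 16511 genes tested were. DESeq2 called none either, and at an unadjusted p under 0.05 edgeR had 1, Zp2, at a log2 fold change of 0.61 (SE 0.29, adjusted p = 0.431). Gdf9 was at 0.66 (SE 0.43, adjusted p = 0.669), Zp3 at 0.64 (SE 0.37, adjusted p = 0.583) and Zp1 at 0.46 (SE 0.40, adjusted p = 0.789). The 95% intervals reached from -0.19 to 1.50 for Gdf9 and from -0.34 to 1.26 for Zp1.

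The plates gave different pictures of the same comparison. Within plate B, where all 8 WT oocytes had little Mos, Gdf9 was higher in KO by 2.94 (SE 0.47, edgeR adjusted p = 1.17e-05) and Zp1 by 2.06 (SE 0.47, adjusted p = 0.00442) on the log2 scale, where 2.42% of all genes tested were higher. Within plate A, Gdf9 differed by 0.03 (SE 0.47, adjusted p = 1) and Zp1 by -0.29 (SE 0.52, adjusted p = 0.922). Without the 11 oocytes under 60 CPM of Mos, a choice made after seeing the data, Gdf9 was at -0.18 (SE 0.43), Zp1 at -0.25 (SE 0.46), Bmp15 at -0.37 (SE 0.48) and Oosp1 at -0.13 (SE 0.33), and none of the 8 passed the test, where 0.637% of all genes did. In 14 wells a WT oocyte of one plate faced a KO oocyte of the other. Blocking on these wells, with a plate effect, edgeR called 6 of the 8 higher in KO, where 4.92% of the 12978 genes tested in that fit were, from 0.31 for Bmp15 (SE 0.10, adjusted p = 0.0255) to 1.29 for Gdf9 (SE 0.12, adjusted p = 1.21e-18), and limma voom, added after seeing the data, called 5, where 4.10% of all genes were higher. Every WT oocyte of plate B in these pairs had little Mos and faced a KO oocyte of plate A that had not, so genotype and low Mos cannot be told apart in those pairs. In wells A1 and A2 only the KO oocyte had little Mos, and Gdf9 was at 2337 and 3923 CPM in WT and 510 and 281 in KO. In A3, A4, A5, A6 and A8 neither had little Mos. Gdf9 was there at 4034, 9700, 7031, 4228 and 2849 CPM in WT and 4208, 6392, 4483, 3316 and 2814 in KO. The part of each kind of pair in the blocked result was not tested.

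Between stages, levels were compared per spike-in count, since the total RNA of the embryo changes. All 8 genes fell from MII to 2c in WT, where 51.3% of all genes tested fell, with a median log2 fold change of -3.40 for the 8 and -1.46 for all genes. In KO 7 of the 8 fell (50.3% of all genes), with medians of -3.30 and -1.42. From MII to 8c all 8 fell in WT (43.6% of all genes) and in KO (45.2%). From 2c to 8c 7 of the 8 fell further in WT (16.2% of all genes) and 7 in KO (19.5%), while the median of all genes went up by 0.53 and 0.30. These comparisons share groups with each other and are not independent.

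All 3 zona genes fell from MII to 2c in both genotypes. Zp1 fell by 5.09 on the log2 scale in WT (SE 0.73, edgeR adjusted p = 5.16e-09), or by 4.43 without WT MII replicate 5, the oocyte with the highest level, and was then at -0.73 (SE 0.61, adjusted p = 0.325) between 2c and 8c. Zp2 fell by 2.68 (SE 0.44, adjusted p = 1.95e-07) and then fell by 3.30 more (SE 0.47, adjusted p = 8.46e-09). Zp3 fell by 3.43 (SE 0.59) and then fell by 1.66 (SE 0.54, adjusted p = 0.00767). In KO Zp1 had a log2 fold change of -4.94 (SE 0.73) and then -3.59 (SE 0.77, adjusted p = 5.97e-05), while Zp3 had -4.92 (SE 0.65) and then -0.77 (SE 0.59, adjusted p = 0.283). In counts per 1000 spike-in counts, Zp1 was at 2.43 to 398 (median 13.3) in WT oocytes, 0.478 to 3.86 (median 1.56) in WT 2c embryos and 0 to 4.28 (median 0.518) in WT 8c embryos. Zp2 was at 2.25 to 24.9 (median 6.35), 0.456 to 2.51 (median 1.08) and 0 to 0.339 (median 0.0901) in the same order. In the 9 WT oocytes with little Mos, Zp1 was at 2.43 to 20.6 (median 6.01), and in the other 7 at 13.5 to 398 (median 114). For Zp1 the oocyte range overlapped that of 2c embryos, and the 2c range lay within the 8c range. For Zp2 the 2c and 8c ranges did not overlap.

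Gdf9 had a log2 fold change at the first step of -5.37 in WT (SE 0.75, edgeR adjusted p = 1.97e-09), or -4.73 without WT MII replicate 5, and of -5.35 in KO (SE 0.75), followed by -2.34 (SE 0.61) and -2.66 (SE 0.69). In counts per 1000 spike-in counts it went from 6.43 to 1483 (median 22.2) in WT oocytes to 2.73 to 9.70 (median 4.92) at 2c and 0 to 4.44 (median 0.546) at 8c. The WT oocytes with little Mos were at 6.43 to 24.1 (median 12.6), overlapping the 2c embryos, and the other 7 at 154 to 1483 (median 240). Bmp15 had -4.10 (SE 0.61) and then -3.77 (SE 0.57) in WT, and in KO -2.29 (SE 0.56, adjusted p = 0.000284) and then -5.57 (SE 0.69, adjusted p = 6.82e-11). Its 2c and 8c ranges did not overlap in either genotype. Bmp6 fell by 1.92 in WT (SE 0.50, adjusted p = 0.000543), and in KO it was at -0.74 (SE 0.47, adjusted p = 0.162). From 2c to 8c it fell in both, at -2.49 (SE 0.54) and -3.18 (SE 0.58). Bmp6 is the gene of the 8 whose direction rests on the spike-in scale: with TMM scaling, which holds total RNA equal, it was higher at 2c than at MII in KO by 1.22 (adjusted p = 0.00358). Fgf8 had -3.37 (SE 0.64), or -2.77 without WT MII replicate 5, and then -4.26 (SE 0.83) in WT, and at 8c a single count was left in the 15 WT embryos and 2 in the 11 KO embryos.

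Oosp1 fell at both steps in both genotypes. Its log2 fold change was -2.49 in WT (SE 0.38, edgeR adjusted p = 4.09e-08) and -2.75 in KO (SE 0.39) at the first step, and -6.28 (SE 0.42, adjusted p = 6.11e-23) and -6.11 (SE 0.48, adjusted p = 4.27e-19) between 2c and 8c. Of all genes tested, 0.139% fell further than Oosp1 between 2c and 8c in WT. In WT it was at 36.1 to 552 counts per 1000 spike-in counts (median 139) in oocytes, 16.6 to 75.5 (median 53.5) at 2c and 0 to 2.14 (median 0.567) at 8c. The 2c and 8c ranges did not overlap, which held for 3 of the 8 genes in each genotype, and for 1.76% of all genes tested in WT and 2.04% in KO. In the WT oocytes with little Mos it was at 36.1 to 142, overlapping the 2c embryos, and in the other 7 at 332 to 552. Whether Oosp1 differed from the zona genes in its course was not tested on this scale.

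**Figure D4:**
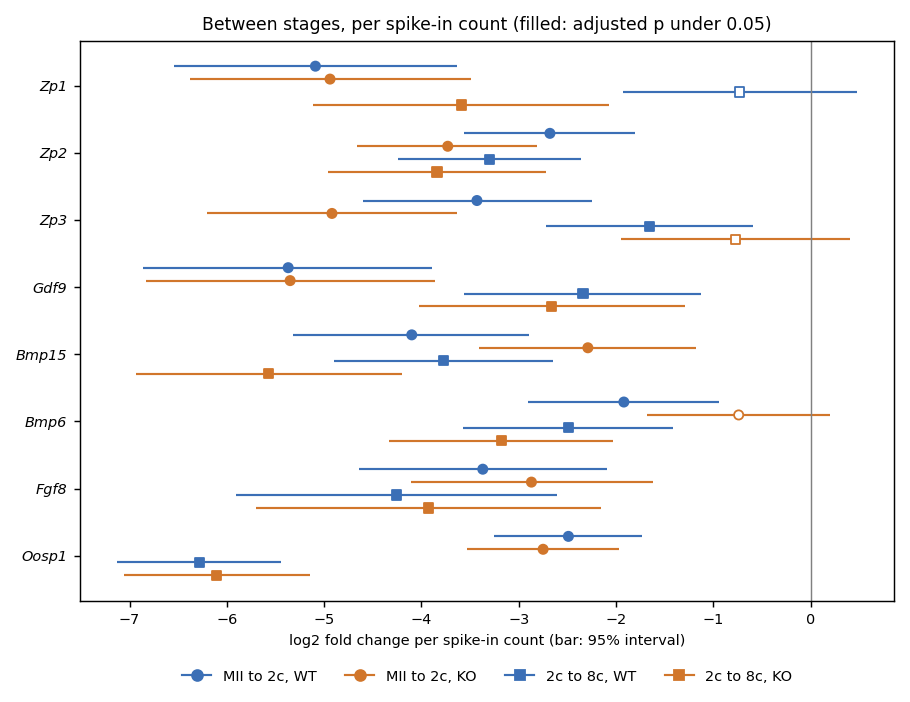
Log2 fold changes per spike-in count between successive stages for the 8 genes, with 95% intervals as bars, circles for MII to 2c and squares for 2c to 8c, blue for WT and orange for KO. Filled symbols have an adjusted p under 0.05; Oosp1 lies near -2.5 at the first step and beyond -6 at the second, while Zp1 in WT lies near -5 at the first and its symbol for the second is open.

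Without the oocytes under 60 CPM of Mos, 8 genes fell from MII to 2c in WT (57.3% of all genes) and 7 in KO (53.0%). In WT the log2 fold changes were then -6.16 for Zp1 (SE 0.66), -3.12 for Zp2 (SE 0.46) and -4.37 for Zp3 (SE 0.52), where the median of all genes was -1.99. Those of the growth factors were -6.51 for Gdf9 (SE 0.60), -5.00 for Bmp15 (SE 0.62), -2.56 for Bmp6 (SE 0.55) and -4.35 for Fgf8 (SE 0.60), and Oosp1 had -3.33 (SE 0.35). In KO, where 2 oocytes were left out, Gdf9 was at -5.56 (SE 0.55), Bmp15 at -2.44 (SE 0.53) and Bmp6, not called, at -0.87 (edgeR adjusted p = 0.0937). The 8 falls in WT were each called with and without these oocytes. In bulk RNA of a whole embryo, fewer transcripts per cell and fewer cells holding them cannot be told apart.

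At the 2c stage the question was whether clearance of these maternal transcripts differed without maternal Plag1. Bmp15 and Bmp6 were higher in KO embryos, which is 2 of 8, where 4.92% of all genes tested were DEGs in either direction. Bmp15 ranged from 135 to 781 normalised CPM in WT 2c embryos, with a median of 350, and from 222 to 5014 in KO 2c embryos, with a median of 881. The ranges overlapped, but 6 of the 11 KO embryos lay above the highest WT embryo and 10 of 11 above the WT median. The log2 fold change was 1.83 (SE 0.46, 95% interval 0.91 to 2.75, edgeR adjusted p = 0.011), or 3.57-fold. Within plate A it was 1.50 (SE 0.70, adjusted p = 0.539) over 4 WT and 5 KO embryos, where 0 of all 15073 genes tested were called (1339 at an unadjusted p under 0.05), and within plate B 2.01 (SE 0.50, adjusted p = 0.0122) over 7 and 6.

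Bmp6 ranged from 11.3 to 50.1 normalised CPM in WT 2c embryos (median 34.7) and from 20.1 to 146 in KO 2c embryos (median 95.7). Here 8 of the 11 KO embryos lay above the highest WT embryo. The log2 fold change was 1.33 (SE 0.42, 95% interval 0.50 to 2.16, edgeR adjusted p = 0.0443), or 2.51-fold, on 65 counts in the WT and 200 in the KO group. This call was lost without WT 2c replicate 6 or without KO 2c replicate 5, at adjusted p of up to 0.0538, with all libraries kept (1.06, adjusted p = 0.0854), with no filter on low counts (1.28, adjusted p = 0.0596) and with spike-in scaling (1.48, adjusted p = 0.103). It was at 1.71 in plate A, where no gene was called, and was not called in plate B (1.02, edgeR adjusted p = 0.265), where 3.31% of all genes were.

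Zp3 went the other way without passing the test. It ranged from 65.5 to 202 normalised CPM in WT 2c embryos (median 155) and from 7.97 to 147 in KO 2c embryos (median 69.3), and all 11 KO embryos lay below the WT median. Its log2 fold change was -0.94 (SE 0.46, adjusted p = 0.232). The other 5 genes had log2 fold changes between -0.05 for Zp2 and 0.42 for Zp1. Gdf9, the partner of Bmp15, ranged from 132 to 637 (median 287) in WT and from 148 to 670 (median 303) in KO, at 0.24 (SE 0.51, 95% interval -0.77 to 1.26). Oosp1 ranged from 802 to 4868 (median 2708) and from 1746 to 4115 (median 2669), at 0.20 (SE 0.32, 95% interval -0.45 to 0.84).

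Whether the genotype difference itself changed from MII to 2c was tested as an interaction. None of the 8 genes passed in edgeR, where 3.31% of all genes did, DESeq2 called 1 (Bmp6 at 1.45, adjusted p = 0.0356, 3.93% of all genes), and 3 were at an unadjusted p under 0.05: Bmp15 at 1.76 (SE 0.60, edgeR adjusted p = 0.079), Bmp6 at 1.45 (SE 0.53, adjusted p = 0.115) and Zp3 at -1.58 (SE 0.59, adjusted p = 0.124). Without the oocytes under 60 CPM of Mos, Bmp15 was at 2.19 (edgeR adjusted p = 0.0497), where 2.48% of all genes passed. Of the markers, edgeR called none of the 3 tested 2c, 8 oocyte and 8 cumulus and granulosa genes at 2c (1, 3 and 2 at an unadjusted p under 0.05), while DESeq2 called 2 oocyte markers higher in KO. The summed level of the 2c markers, of which 3 of 6 had counts, was 105 to 1124 CPM (median 231) in WT and 204 to 704 CPM (median 562) in KO. Oocyte markers, all 8 detected, summed to 8449 to 16783 CPM (median 11902) in WT and 7800 to 23682 CPM (median 11627) in KO. Cumulus and granulosa markers, 10 of 17 detected in each, summed to 168 to 1249 CPM in WT and 43.3 to 526 CPM in KO. Most of that sum was Nr5a2, at 125 to 1012 normalised CPM (median 305) in WT and 31.9 to 388 (median 147) in KO (edgeR adjusted p = 0.138), and at 274 to 2008 (median 564) in WT 8c embryos. Cyp19a1, Kitl and Fshr averaged 0.369 to 5.85 normalised CPM at 2c, and Cyp11a1, Amh, Inha, Ptx3, Areg and Ereg were at 0 in both. Their part in the result was not tested.

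**Figure D5:**
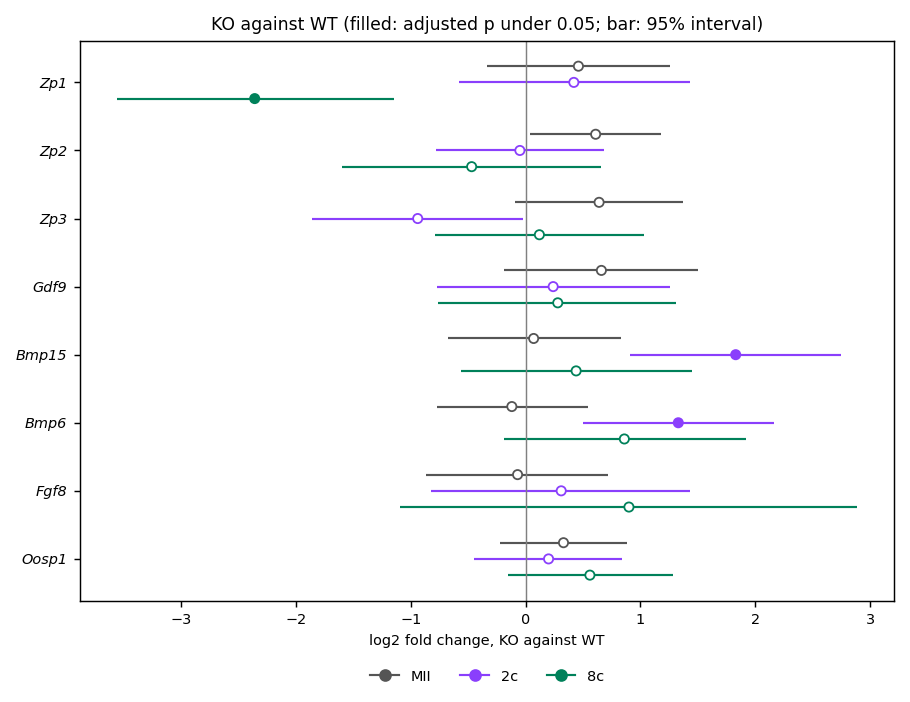
Log2 fold change of KO against WT for the 8 genes at MII (grey), 2c (purple) and 8c (green), with 95% intervals as bars; filled circles have an adjusted p under 0.05. Bmp15 at 1.83 and Bmp6 at 1.33 are filled at 2c and Zp1 at -2.36 at 8c.

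At the 8c stage the counts were small. Zp1 was lower in KO, which is 1 of 8, where 1.74% of all genes tested were DEGs. It ranged from 0 to 125 normalised CPM in WT 8c embryos (median 14.3) and from 0 to 20.3 in KO 8c embryos (median 3.25), with 2 of 15 WT and 5 of 11 KO embryos at 0. A count of 0 in a KO embryo allows up to 3 counts, which is 4.51 to 14.0 CPM across the depths of that group, for counting error only. The log2 fold change was -2.36 (SE 0.61, 95% interval -3.56 to -1.15, edgeR adjusted p = 0.0238). It rested on 188 counts in WT, 125 of them in 3 embryos, and 22 in KO. Of the WT counts, 54 and 34 came from replicates 3 and 10, in well E3 of plates A and B. Another 37 and 24 came from replicates 6 and 14, in well F3, and the fit took embryos of a shared well as unrelated. No shared well at 8c held both genotypes, so genotype and well cannot be told apart here. Fitted on the 8c groups alone the log2 fold change was -2.29 (edgeR adjusted p = 0.0478). Leaving out 1 embryo at a time from that fit lost the call in 16 of 26, with adjusted p of up to 0.0993. With spike-in scaling it was -2.31 (adjusted p = 0.123), and within either plate it was not made (-2.67 and -2.03, adjusted p = 0.287 and 0.228), where 0.0398% and 0.303% of all genes were called.

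The change of the Zp1 difference between genotypes from 2c to 8c was -2.78 (SE 0.79, edgeR adjusted p = 0.0372), the 1 call among the 8 genes, where 2.30% of all genes tested were called. With spike-in scaling it was -2.86 (adjusted p = 0.129) and not called, nor was it in plate B (-2.47, adjusted p = 0.152) or in plate A (-2.92, adjusted p = 0.407), where 0 of all genes were (1341 at an unadjusted p under 0.05). Of the others at 8c, Zp2 had 20 counts in WT and 9 in KO, with 8 of 11 KO embryos at 0, and a log2 fold change of -0.47 (SE 0.57). Zp3 was at 0.12 (SE 0.46), Gdf9 at 0.28 (SE 0.52), Bmp15 at 0.44 (SE 0.51) and Oosp1 at 0.56 (SE 0.36), all 4 with adjusted p of 0.512 or more, and Bmp6 was at 0.86 (SE 0.53, adjusted p = 0.482) on 17 and 19 counts. For Bmp15 this set a 3.57-fold difference at 2c beside 1.36-fold at 8c, and the change between the stages was -1.39 (SE 0.69, adjusted p = 0.27). Of the 6 markers of the 8c stage 3 were lower in KO, Krt8 at -1.91 (SE 0.49, adjusted p = 0.0258), Krt18 at -1.91 (SE 0.45, adjusted p = 0.0115) and Cdx2 at -2.00 (SE 0.57, adjusted p = 0.0471), and the 6 summed to 136 to 1108 CPM in WT and 47.0 to 614 CPM in KO. Cdx2 was named after its values were seen. Of the 8 oocyte markers 1 was called at 8c, Oog1, higher in KO at 1.35 (SE 0.35, adjusted p = 0.0247). In these libraries Oog1 was highest at 2c: in WT it was at 4.90 to 44.5 normalised CPM in oocytes, 958 to 5567 at 2c and 4.53 to 195 at 8c. The part of these markers in the lower Zp1 was not tested.

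Ratios of counts within a library do not depend on scaling, and 12 were tested by permutation of libraries with adjustment over the 12. At 2c the log2 ratio of Bmp15 to Gdf9 averaged 0.31 ± 0.74 (SD, n = 11) for WT and 1.53 ± 0.93 (SD, n = 11) for KO, higher by 1.22 (two-sided permutation test, adjusted p = 0.0307). That of Zp1 to Zp3 averaged -0.75 ± 0.94 (SD, n = 11) for WT and 0.65 ± 1.39 (SD, n = 11) for KO (difference 1.39, permutation adjusted p = 0.031). Transcripts of the 2 paired growth factors, and those of the zona linker and its filament partner, were thus counted in other proportions in KO than in WT 2c embryos. From WT oocytes to WT 2c embryos Oosp1 rose against Gdf9, from 1.72 ± 1.55 (SD, n = 16) to 2.97 ± 0.66 (SD, n = 11, permutation adjusted p = 0.031), and Zp1 fell against Zp3, from 0.74 ± 1.41 to -0.75 ± 0.94 (permutation adjusted p = 0.031). Without the oocytes under 60 CPM of Mos these changes were 2.54 (exact permutation test, adjusted p = 0.000754) and -1.80 (exact permutation test, adjusted p = 0.00566), and Bmp15 then rose against Gdf9 by 1.69 (exact permutation test, adjusted p = 0.0177). Between WT and KO oocytes none of the 4 ratios differed past the threshold, and the nearest was Bmp15 to Gdf9 at -1.09 (permutation adjusted p = 0.131). With at least 30 counts required, Bmp15 to Gdf9 at 2c was the 1 of the 12 that passed.

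The pathway around these ligands was largely detected. Of 21 receptors and SMADs of the TGF-beta superfamily 19 were tested. From MII to 2c in WT edgeR called 11 lower (51.3% of all genes) and 2 higher (14.1% of all genes), with a median of -2.55 beside -1.46 for all genes. At 2c 1 of the 19, Smad9, was higher in KO by 3.01 (SE 0.88, edgeR adjusted p = 0.0311), where 2.30% of all genes were higher. DESeq2 called 2 higher, where 2.37% of all genes were, and edgeR had 4 at an unadjusted p under 0.05. Smad3, a mediator of GDF9 signals, averaged 109 ± 104 normalised CPM (SD, n = 11) at 2c in WT, and 247 ± 139 (SD, n = 11) in KO (log2 fold change 1.17, SE 0.43, adjusted p = 0.0891). Of 15 other ligands of the superfamily 11 were tested. edgeR called none at MII or 2c (1 and 3 at an unadjusted p under 0.05), and DESeq2 called 1 at 2c. At 8c Tgfb2 was higher in KO at 2.42 (SE 0.43, adjusted p = 0.000229) and Bmp8b lower at -3.84 (SE 0.95, adjusted p = 0.0182). Bmp8b had no count in any kept KO 8c embryo, so the size of its fold change does not measure a KO level. Smad9 and Bmp8b were singled out after their values were seen. Tgfb2 had -3.20 (SE 0.39) and then -5.96 (SE 0.44) in WT at the 2 steps.

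Relatives of the zona genes and of Oosp1 fell as well. Of 5 tested, 4 fell from MII to 2c in each genotype (51.3% of all genes in WT and 50.3% in KO), and 5 in WT (16.2%) or 3 in KO (19.5%) from 2c to 8c, and edgeR called none between genotypes at MII, 2c or 8c (1, 0 and 1 at an unadjusted p under 0.05). Astl, the protease that cleaves ZP2 after fertilisation, averaged 131 ± 132 normalised CPM (SD, n = 16) in WT oocytes and fell by 5.48 (SE 0.73) at the first step in WT. Oosp3 had -4.42 (SE 0.58) and then -4.22 (SE 0.66), and Oosp2 had -4.75 (SE 0.74) at the first step. Of the 5 proprotein convertases, which cut TGF-beta family precursors and zona proteins, edgeR called 4 lower (51.3% of all genes) and 1 higher (14.1%) at 2c than at MII in WT, and none between genotypes at MII, 2c or 8c (1, 0 and 0 at an unadjusted p under 0.05). Furin, the best known of them, fell by 3.73 (SE 0.74). Of the 3 factors that act on zona promoters edgeR called none between genotypes at these stages (0, 0 and 0 at an unadjusted p under 0.05). DESeq2 called none of the relatives, convertases or factors between genotypes either. Figla had -3.34 (SE 0.69) and Tcf3 -1.91 (SE 0.58) from MII to 2c in WT.

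The genes whose levels followed each member most closely were sought over the 78 libraries, by Pearson's r of log2(CPM + 1). These libraries share stage and depth, so r is a description. Oosp1 was closest to 7420461P10Rik, Tcl1 and D6Ertd474e (each r = 0.97), Bmp15 to Trim60, Trim61 and the oocyte gene Bcl2l10 (each 0.95), and Zp2 to Gm19299 (0.94), Fbxw4 and Tubb2a (each 0.93). Gdf9 was closest to Ccno (0.93), Cd164l2 and Lrrc17 (each 0.92), Zp1 to Pias1 (0.90), Cd164l2 and Glrx (each 0.89), and Zp3 to Ccno (0.84), Dicer1 and Eps8 (each 0.83). Bmp6 (Shroom4, 0.87) and Fgf8 (Nup214, 0.83) had looser neighbours. Among the 8 themselves r ranged from 0.58 to 0.92 over the 28 pairs, with a median of 0.79. Within the 30 oocytes alone it ranged from -0.37 to 0.80, with a median of 0.21. Within the 19 oocytes at or over 60 CPM of Mos it ranged from -0.70 to 0.69, with a median of 0.03. Gdf9 and Ccno had r = 0.90 within the 30 oocytes and 0.39 within the 19, and Gdf9 and Zp1 0.80 and 0.23. Zp2 and Gdf9 were at 0.11 and -0.11, and Bmp15 and Oosp1 at -0.04 and -0.30.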

How the data were processed

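Reads were counted per gene by the authors with HOMER after TopHat alignment to mm9, and molecular tags were joined first. The deposited values are raw counts of 24422 genes and 92 spike-in RNAs in 90 libraries. Gene counts of kept libraries ran from 92475 to 2502421, which limits low genes at 2c and 8c. Libraries with a median under 1 CPM over genes with at least 1 CPM in 5 libraries were left out (12). Genes with at least 1 CPM in 5 kept libraries were tested (16511). Genotypes were compared with edgeR 4.0.16 in R 4.3.3 (TMM factors, quasi-likelihood test over all 6 groups, Benjamini-Hochberg over all genes, adjusted p under 0.05), and stages with the spike-in total as library size. SE is the log2 fold change over the square root of F. Ratios added 0.5 to each count, needed 10 counts together and used 100000 resamples (SciPy 1.17.1). No 2 libraries of a group agreed within counting noise. DESeq2 1.42.0 and limma 3.58.1 were alternatives. The scripts were tested on simulated data, where false calls ran above the nominal share. Deviations from group and plate means correlated over 0.1 in 14 of 14 wells shared by WT and KO oocytes, and deviations from group means alone in 12, so the blocked value stands beside the MII result. All 8 genes were named, with up to 4 genes per list by highest mean level and the 3 closest genes per member, and others only where said. The genes and lists were chosen with earlier results of these data known. Intervals are at 95% and cover counting error or spread between libraries only. Promoters and gene structures were read from the NCBIM37 (mm9) genome and GENCODE annotation.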

Additional observations from a re-analysis of the deposited data

Results flagged for a closer look

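The genotype difference in Zp1 was tested between stages and differed between 8c and 2c, at -2.78 on the log2 scale (SE 0.79, edgeR adjusted p = 0.0372). The difference was 0.42 (SE 0.51) at 2c and -2.36 (SE 0.61) at 8c. With spike-in scaling the change between the stages was -2.86 (adjusted p = 0.129), in plate A -2.92 (adjusted p = 0.407) and in plate B -2.47 (adjusted p = 0.152).

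The 12 libraries left out for a median under 1 CPM also held reads of the 8 genes, which the main comparisons did not use. There were 1365 counts in 2 KO oocytes, 620 in 3 WT 2c embryos, 948 in 3 KO 2c embryos and 20 in 4 KO 8c embryos. The KO 8c libraries held 83 to 1721 gene counts each. With all libraries kept, Bmp15 at 2c stayed at 1.77 (edgeR adjusted p = 0.0116) and Zp1 at 8c at -2.37 (adjusted p = 0.0204), while Bmp6 at 2c was at 1.06 and no longer called (adjusted p = 0.0854).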

How the results depend on the processing

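Most results kept their direction and their side of the threshold, 612 of 703 single values and 106 of 129 counts outside the fits that left out 1 embryo. The cause of the changes below was not tested. At 2c the count of the 8 that passed was 0 at the stricter threshold of 0.01 and 0 in plate A alone. It was 1 with all libraries kept, where 459 of 16578 genes were higher and 309 lower. It was also 1 with no filter on low counts, where 286 of 19613 genes were higher and 418 lower. With spike-in scaling it was 1, where 191 of 16511 genes were higher and 94 lower. In plate B alone it was 1, where 3.31% of all genes were called. Without 1 embryo at a time the count ran from 1 to 3. At 8c and for the change from 2c to 8c, 0 were called at 0.01, with spike-in scaling, in plate A alone and in plate B alone, and at 8c without 1 embryo the count ran from 0 to 1. At MII 2 were called in plate B alone, where 2.42% of all genes were higher. With the well as a replicate block 6 (edgeR) or 5 (limma voom) were called, where 4.92% and 4.10% of all genes were higher. For the change from MII to 2c, 1 was called with DESeq2 (3.93% of all genes), in plate B alone (3.38%) and without the low-Mos oocytes (2.48%). With median-ratio scaling 1 was called too, where 434 of 16511 genes were higher and 177 lower. From 2c to 8c in WT, plate A alone called 4, where 2771 of 15073 genes were higher and 1255 lower. Of the ratios, 1 passed with at least 30 counts.

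Zp1 at 8c was lost without WT 8c replicate 3, 6, 7, 10, 11, 12 or 14, or KO 8c replicate 1, 3, 4, 6, 7, 9, 12, 13 or 14, at log2 fold changes of -2.84 to -1.94. Bmp15 at 2c was called without any 1 embryo, at 1.49 to 2.10. Without 1 oocyte at a time, added after seeing the data, 8 genes in WT and 7 in KO were called from MII to 2c and 8 in each from MII to 8c, and WT MII replicate 5 was the 1 oocyte that moved a fold over 1.5 times, for Zp1, Gdf9 and Fgf8. In plate A alone 0 of all genes tested were called at 2c. Some signs turned. Bmp15 at MII was 0 with all libraries kept, -0.81 in plate A and -0.37 without the low-Mos oocytes; Zp1 at MII was -0.29 in plate A and -0.25 without those oocytes, Gdf9 -0.18 and Oosp1 -0.13. The change of the Gdf9 difference from MII to 2c was 0.03 with spike-in scaling, 0.53 in plate A and 0.39 without those oocytes. Without them the log2 ratios in KO against WT oocytes were 0.10 for Bmp15 to Gdf9, -0.28 for Zp1 to Zp3 and 0.64 for Zp2 to Zp3, and Zp2 to Zp3 from MII to 2c in WT was 0.79. Bmp6 from MII to 2c in KO was 1.22 with TMM scaling. No paired analysis was possible at 2c and 8c because too few wells held both genotypes, 2 of 8 shared wells at 2c and 0 of 12 at 8c. Deviations from group and plate means correlated over 0.1 in 5 of those 8 wells and in 11 of those 12. Embryos of the same genotype in a shared well were counted as separate replicates, so p-values at 2c and 8c may be too small. At 8c no shared well held both genotypes, so a difference between genotypes cannot be told apart from one between wells. At 2c the same holds for all but 2 of the 8 shared wells. What a shared well marks is not given by the labels. Depth limits Fgf8, Zp2, Bmp6 and Zp1 at 8c, where most embryos held few counts.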
